A study of Mus musculus with 12 samples.

Results

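The 9 genes described here carry the calcium-dependent calcineurin, NFAT and CaMKII signals of the heart muscle cell. They were the rows whose NCBI Gene IDs map to Rcan1, Ppp3ca, Ppp3cb, Ppp3r1, Nfatc1, Nfatc2, Nfatc3, Nfatc4 and Camk2d. All 9 of the 9 were found among 18079 genes, and all 9 passed the filter on low values. That rule uses gene IDs and no expression level. Levels are given as FPKM, which scales the fragments of each gene by its transcript length and by the size of the library.

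RNA came from left ventricular muscle of C57BL/6 mice (the name in the labels; the methods give C57BL/6J), 1 library a mouse, in 4 groups of 3. Mice had a sham operation (Sham) or aortic banding (AB), a narrowing of the descending aorta that loads the left ventricle with pressure. Hispidulin, a plant flavone, was injected into the peritoneum once a day at 20 mg/kg, and the DMSO groups received the solvent. Dosing began 1 day ahead of the operation and went on for 4 weeks. By the labels the mice were aged 8 weeks when operated on and 12 weeks when the tissue was taken. The groups are called DMSO+Sham, DMSO+AB, Hispidulin+Sham and Hispidulin+AB, and the labels name no transgene or deletion.

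When calcium rises in a cardiomyocyte, calmodulin switches on both calcineurin, a protein phosphatase, and CaMKII, a protein kinase. Calcineurin removes phosphates from NFAT proteins, which then enter the nucleus and turn on growth genes, while CaMKII phosphorylates calcium-handling proteins and sends class IIa histone deacetylases out of the nucleus. Much of this signalling is set by protein modification, which RNA levels do not show. Rcan1 is the exception in kind: its product binds and inhibits calcineurin, and one of its transcripts starts from an internal promoter that NFAT itself is known to switch on.

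The 6 cardiomyocyte marker genes summed to between 36020 and 53160 FPKM in the 12 libraries. The 3 atrial markers (Myl7, Myl4, Sln) summed to 773.9 FPKM in Hispidulin+Sham mouse 3, 172 in DMSO+AB mouse 2 and 91 in Hispidulin+AB mouse 3, against 2.53 to 39.99 in the other 9. The summed endothelial markers lay between 229.2 and 287.5 FPKM the smooth muscle markers between 42.41 and 128.5 FPKM apart from Hispidulin+Sham mouse 1 at 282.3 FPKM, and the myeloid markers between 117.5 and 240 FPKM. None of the 6 lymphocyte markers passed the filter, with summed levels of 0.68 to 2.01 FPKM. Total FPKM ranged from 535235 to 567027, the number of reads behind each value is unknown, and the Spearman correlation between libraries was 0.968 to 0.986 within groups and 0.963 to 0.986 between them. In such bulk tissue, fewer cells of a type and less RNA per cell cannot be told apart.

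Because Rcan1 was the member that differed most between operations, the 250 bases before both of its annotated RefSeq starts are shown (assembly GRCm38.p6, chromosome 16, minus strand, 5′ to 3′). Capitals mark GGAAA, the core letters that NFAT proteins recognise, and TGANTCA, the letters recognised by the AP-1 factors that bind beside them, each on either strand.

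Rcan1 internal start, chr16:92400079-92400328: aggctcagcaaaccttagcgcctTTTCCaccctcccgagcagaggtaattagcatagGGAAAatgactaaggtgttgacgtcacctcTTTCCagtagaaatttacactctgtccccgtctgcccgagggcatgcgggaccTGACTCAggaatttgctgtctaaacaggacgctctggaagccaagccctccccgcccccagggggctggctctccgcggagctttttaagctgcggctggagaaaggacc

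Rcan1 upstream start, chr16:92466170-92466419: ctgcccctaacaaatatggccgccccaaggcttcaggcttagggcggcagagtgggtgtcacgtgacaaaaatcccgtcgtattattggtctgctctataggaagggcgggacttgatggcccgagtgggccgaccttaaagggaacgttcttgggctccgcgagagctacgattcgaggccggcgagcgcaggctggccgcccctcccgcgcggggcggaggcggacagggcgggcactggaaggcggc

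The internal window held 3 GGAAA matches, whose first bases lay 227, 193 and 163 bases before the start, and 1 TGANTCA match at 110 bases. The upstream window held 0 of each. Of 32851 promoters in the same table, 55.6% held at least 1 GGAAA match, 6.39% at least 3, and 6.75% at least 1 TGANTCA match. For 7 of the members, 10 windows were read. Of these windows 4 held 3 GGAAA matches: the internal one of Rcan1, the upstream one of Nfatc2, and those of Nfatc4 and Ppp3cb. The internal Rcan1 window was the 1 of 10 with a TGANTCA match. No window of Ppp3ca or Nfatc1 was read. A match of letters is a description of the window and not a measured binding site. The FPKM values are per gene and do not separate the transcripts from the 2 Rcan1 starts.

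The members covered a wide range of levels, which FPKM, being per length, allows to be set side by side. Rcan1 had a mean of 186.9 FPKM over the 12 mice, above 97.6% of the genes in the table. Camk2d followed at 44.19 FPKM, Ppp3r1 at 34.07, Ppp3cb at 29.17 and Ppp3ca at 18.5. The NFAT genes were lower, at 8.116 FPKM for Nfatc1, 5.987 for Nfatc3, 4.175 for Nfatc2 and 2.209 for Nfatc4. The coefficient of variation over all mice was 63.87% for Rcan1, 23.81% for Nfatc4, 19.45% for Nfatc2 and 17.42% for Camk2d, and between 7.086% and 13.09% for the other 5.

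**Figure D1:**
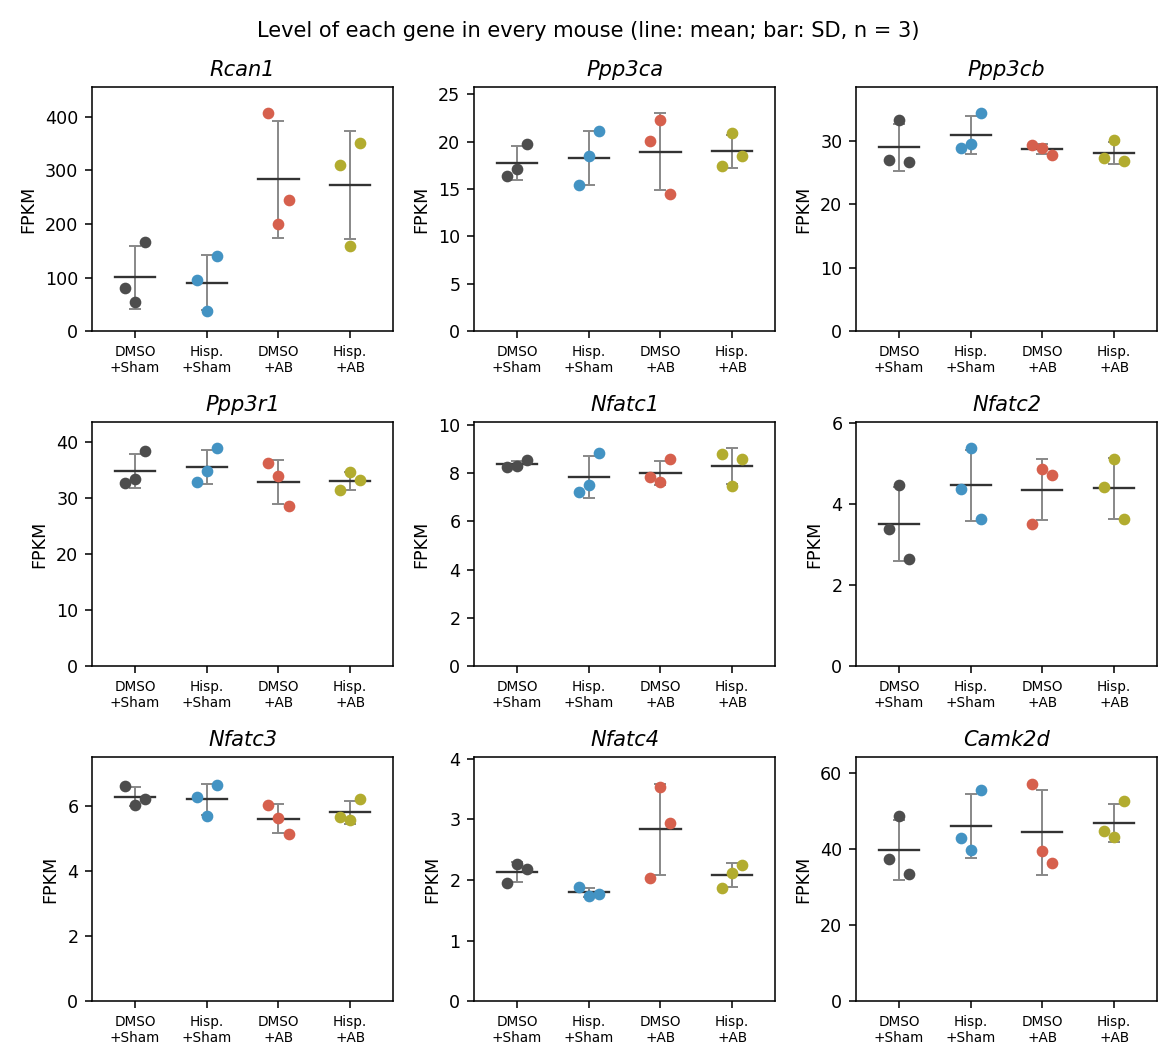
Level of each of the 9 genes in FPKM (vertical axes, from 0) in the 4 groups (horizontal axes), with 1 point per mouse, a line at the mean and a bar for the SD (n = 3). For Rcan1 the mice of each banded group stand above those of the sham group with the same treatment, although Hispidulin+AB overlaps DMSO+Sham (158.53 and 166.44 FPKM), and the mice of all 4 groups overlap for Ppp3ca, Ppp3cb, Ppp3r1, Nfatc1, Nfatc2 and Camk2d.

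The first comparison asked which of these genes differ in pressure-overloaded hearts without the drug. Rcan1 measured 81.34, 53.72 and 166.44 FPKM in the 3 DMSO+Sham mice. It measured 406.5, 199.34 and 244.08 FPKM in the 3 DMSO+AB mice. Every banded heart was above every sham heart. The group means were 100.5 ± 58.75 and 283.3 ± 109 FPKM (SD, n = 3), and the log2 fold change of log2(FPKM + 1) was 1.58 (SE 0.508, 95% confidence interval 0.47 to 2.68), which is 2.98-fold. With limma across 11664 genes and Benjamini-Hochberg adjustment this gave an adjusted p of 0.1, short of the 0.05 threshold. Leaving out DMSO+Sham mouse 3, the sham mouse of highest Rcan1, gave a log2 fold change of 2.02 with a limma adjusted p of 0.0461, whereas without any other 1 of the 6 mice the adjusted p lay between 0.149 and 0.239.

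The count of members past the threshold in DMSO+AB against DMSO+Sham was 0 of 9 with limma, where 5.21% of all genes passed (2.5% higher in DMSO+AB). At an unadjusted p under 0.05 it was 1 of 9, Rcan1, beside 2378 of the 11664 genes. In 1 of 9 members, Rcan1, the mice of the 2 groups did not overlap, which was the case for 17.9% of all genes. The median log2 fold change was 0.07 over the 9 members and -0.04 over all genes. Apart from Rcan1 the largest differences were 0.27 for Nfatc4 and 0.26 for Nfatc2.

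The Hispidulin-treated mice gave a second measurement of banding, in animals that the first comparison did not use. Rcan1 measured 95.69, 37.12 and 139.4 FPKM in the Hispidulin+Sham mice. It measured 310.25, 158.53 and 350.66 FPKM in the Hispidulin+AB mice. Again the 2 groups did not overlap, with means of 90.74 ± 51.32 and 273.1 ± 101.3 FPKM (SD, n = 3). The log2 fold change was 1.69 (SE 0.508, 95% confidence interval 0.58 to 2.80), or 3.23-fold, with a limma adjusted p of 0.482. No member passed (0 of 9) in Hispidulin+AB against Hispidulin+Sham, where 0% of all genes passed, and 1 of 9, Rcan1, had groups that did not overlap, beside 20.9% of all genes. Unadjusted, 847 genes had a limma p under 0.05, of which Rcan1 was the 1 member. The numbers of the mice paired in this comparison, and a fit blocked on them called 17 genes and no member, with an adjusted p of 0.0752 for Rcan1 from limma.

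Averaged over both treatments, the banding effect on Rcan1 was estimated from all 12 mice. This average was added after the separate comparisons had been seen. The log2 fold change was 1.63 (SE 0.359, 95% confidence interval 0.85 to 2.42), or 3.1-fold, with a limma adjusted p of 0.0197. Of the 9 members, 1 passed, where 7.39% of all genes passed and 3.52% did so as higher in AB. An exact two-sided permutation test on 6 against 6 mice gave p = 0.0043, 1 of 54 such tests run on the members. In the same average 1 of the 4 smooth muscle markers, Tagln, passed as higher in AB at a log2 fold change of 0.49 (limma adjusted p 0.043). That call held in 8 of 21 alternative settings. Of the other smooth muscle markers Cnn1 lay above 0, at 0.58, and Acta2 and Myh11 below it, at -0.31 and -0.13. Among the 6 fibroblast markers 2 passed as higher in AB, Postn at 2.38 (held in 21 of 21) and Col1a1 at 1.42 (held in 13 of 21). The part of these markers in the Rcan1 result was not tested. The Hispidulin+AB mouse at 158.53 FPKM lay below the highest sham mouse at 166.44 FPKM, so the pooled operations overlapped by that pair. Over 21 alternative settings the limma adjusted p of Rcan1 ranged from 0.00274 to 0.066, and it lay above 0.05 without DMSO+Sham mouse 1 (0.0512), Hispidulin+AB mouse 1 (0.0528) or Hispidulin+AB mouse 3 (0.0574). Rcan1 passed without each of the mice with high atrial markers except that last one, with adjusted p of 0.0191 without Hispidulin+Sham mouse 3 and 0.0338 without DMSO+AB mouse 2.

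The size of the Rcan1 difference moved with the animal numbers in the labels, which fall into a series from 5000 and a series from 6000, with DMSO+Sham mouse 1 in neither. In the series from 5000, 2 AB mice at 244.08 and 350.66 FPKM stood against 3 sham mice between 37.12 and 95.69 FPKM, a mean difference of 2.32 on the log2 scale. In the series from 6000, 4 AB mice between 158.53 and 406.5 FPKM stood against 2 sham mice at 139.4 and 166.44 FPKM, a mean difference of 0.72, and the operations overlapped. AB was higher in both series and, within each, for both treatments (0.77 and 0.67 in the series from 6000 for DMSO and Hispidulin). With the series as a covariate the averaged log2 fold change was 1.47 with a limma adjusted p of 0.066. That fit gave DMSO+Sham mouse 1 a level of its own, so that this mouse did not enter the estimate. Leaving out that mouse alone gave 1.60 (limma adjusted p 0.0512). What the numbering stands for is not given in the sources used here, and its part in the result was not tested.

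Between the drug and the solvent in banded hearts, Rcan1 did not pass the test. Its log2 fold change in Hispidulin+AB against DMSO+AB was -0.07 (SE 0.508, 95% confidence interval -1.17 to 1.04, limma adjusted p 0.998). A difference of either sign within that interval is compatible with these values. The interaction, the banding effect with Hispidulin minus that with DMSO, was 0.12 (SE 0.718, 95% confidence interval -1.45 to 1.68), and 0 of 9 members passed for it, beside 0% of all genes. In sham hearts the log2 fold change of Rcan1 with Hispidulin was -0.18 (95% confidence interval -1.29 to 0.93).

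**Figure D2:**
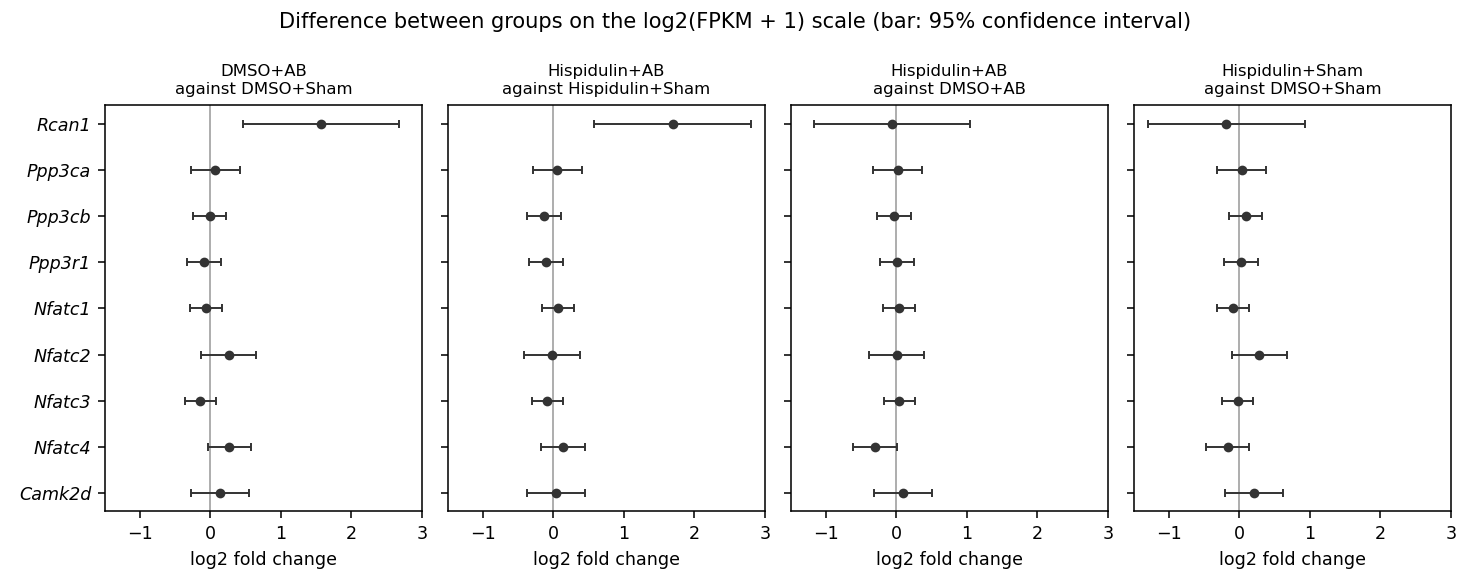
Log2 fold change of each of the 9 genes on the log2(FPKM + 1) scale (horizontal axis) with its 95% confidence interval, in 4 comparisons between groups of 3 mice. The Rcan1 intervals lie above 0 in both banding panels (0.47 to 2.68 and 0.58 to 2.80) and span 0 in both drug panels.

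None of the 3 calcineurin subunit genes passed the test in any of these comparisons. Ppp3ca, which encodes the alpha form of the catalytic subunit, measured 16.4, 17.11 and 19.78 FPKM in DMSO+Sham and 20.07, 22.3 and 14.47 FPKM in DMSO+AB. With Hispidulin it measured 15.39, 18.45 and 21.09 FPKM after sham surgery and 17.47, 20.94 and 18.49 FPKM after banding. Its lowest value lay in the group that also held its highest. Its log2 difference was 0.07 in DMSO+AB against DMSO+Sham (95% confidence interval -0.28 to 0.42) and 0.02 in Hispidulin+AB against DMSO+AB (-0.33 to 0.37).

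Ppp3cb encodes the beta catalytic subunit. It measured 26.93, 33.3 and 26.72 FPKM in DMSO+Sham, 28.89, 29.5 and 34.33 in Hispidulin+Sham, 29.37, 28.92 and 27.8 in DMSO+AB and 27.34, 30.08 and 26.82 in Hispidulin+AB. The groups overlapped throughout. Its log2 fold change with banding was -0.01 in DMSO mice (95% confidence interval -0.24 to 0.23) and -0.13 in Hispidulin mice (-0.37 to 0.10).

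Ppp3r1 encodes the calcium-binding regulatory subunit that both catalytic forms need. Its levels were 32.73, 33.39 and 38.32 FPKM in DMSO+Sham and 36.25, 33.84 and 28.54 in DMSO+AB, and 32.92, 34.84 and 38.82 in Hispidulin+Sham and 31.45, 34.58 and 33.11 in Hispidulin+AB. The lowest mouse was a DMSO+AB mouse and the ranges crossed. The log2 fold change was -0.08 in DMSO+AB against DMSO+Sham (95% confidence interval -0.33 to 0.16). Exons of Ppp3r1 overlap those of Wdr92 on the same strand in the GENCODE annotation, so some of its reads could belong to that gene.

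Seen as a family per length, the beta form had the largest mean share of the catalytic transcripts. In DMSO+Sham, Ppp3cb held 40.99 ± 3.687% of the summed FPKM of the 3 catalytic genes, Ppp3cc, the gamma form, 33.82 ± 1.551% and Ppp3ca 25.18 ± 2.413% (SD, n = 3). The order was the same in the means of all 4 groups. In DMSO+AB the shares were 38.73 ± 1.998%, 35.92 ± 2.941% and 25.35 ± 3.921%, and the summed level was 66.47 to 80.89 FPKM over the 12 mice. The differences in these shares gave p of 0.4 to 0.9 in exact two-sided permutation tests, where 3 against 3 mice cannot give a p under 0.1.

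The 4 NFAT genes encode the factors that calcineurin acts on. Nfatc1 was the highest and the steadiest, with 8.25, 8.3 and 8.52 FPKM in DMSO+Sham, 7.2, 7.49 and 8.82 in Hispidulin+Sham, 7.81, 7.61 and 8.56 in DMSO+AB and 8.8, 7.44 and 8.59 in Hispidulin+AB. Its groups overlapped, and the log2 fold change with banding was -0.06 in DMSO mice (95% confidence interval -0.29 to 0.17) and 0.07 in Hispidulin mice (-0.16 to 0.30).

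Nfatc2 measured 3.38, 4.47 and 2.65 FPKM in DMSO+Sham and 3.5, 4.86 and 4.71 in DMSO+AB. With Hispidulin it measured 4.37, 5.37 and 3.64 FPKM after sham surgery and 4.42, 5.11 and 3.62 after banding. DMSO+Sham mouse 3 was the lowest of the 12, and the groups overlapped. Banding in DMSO mice gave a log2 fold change of 0.26 (95% confidence interval -0.13 to 0.65), and Hispidulin in sham mice gave 0.29 (-0.11 to 0.68), both measured against the same 3 mice.

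Nfatc3 measured 6.63, 6.05 and 6.22 FPKM in DMSO+Sham and 6.29, 5.7 and 6.66 in Hispidulin+Sham, against 6.05, 5.65 and 5.15 in DMSO+AB and 5.66, 5.57 and 6.21 in Hispidulin+AB. The 2 DMSO groups met at 6.05 FPKM and the Hispidulin groups overlapped. Averaged over both treatments the log2 fold change was -0.11 (SE 0.0709) with a limma adjusted p of 0.381, while the exact two-sided permutation test on 6 against 6 mice gave p = 0.0238, before any allowance for the 54 tests. Its exons overlap those of Esrp2 on the opposite strand, and the read counting is not stated to use strand.

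Nfatc4 was the lowest of the members and, after Rcan1, the most variable. It measured 1.95, 2.27 and 2.18 FPKM in DMSO+Sham and 2.03, 3.53 and 2.94 in DMSO+AB. With Hispidulin it measured 1.88, 1.74 and 1.76 FPKM after sham surgery and 1.86, 2.12 and 2.25 after banding. The 2 highest values of the 12 were both in DMSO+AB, whose remaining mouse lay within the sham range. With banding in DMSO mice the log2 fold change was 0.27 (SE 0.141, 95% confidence interval -0.03 to 0.58, limma adjusted p 0.301). In Hispidulin+AB against DMSO+AB it was -0.30 (SE 0.141, 95% confidence interval -0.61 to 0.01), with a limma p of 0.0551 and an adjusted p of 0.996. Both differences use the same 3 DMSO+AB mice. Leaving out 1 mouse each gave 0.14 to 0.43 for the first and -0.46 to -0.17 for the second, with the extremes without DMSO+AB mouse 2 and DMSO+AB mouse 1.

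In sham hearts every Hispidulin mouse was below every DMSO mouse for Nfatc4. There the log2 fold change was -0.16 (95% confidence interval -0.47 to 0.14, limma adjusted p 1). It was the 1 of 9 members whose mice did not overlap in Hispidulin+Sham against DMSO+Sham, where the share over all genes was 5.6%. By the limma adjusted p, 0 of 9 members passed in that comparison, beside 0% of all genes. For Hispidulin in banded hearts 0 of 9 members passed, beside 0% of all genes, and 0 of 9 had groups that did not overlap, beside 7.88%. Over both operations Nfatc4 was lower with Hispidulin by a log2 difference of -0.23 (SE 0.0996, 95% confidence interval -0.45 to -0.01). The limma adjusted p was 0.999, 0 of 9 members passed, and 0% of all genes did.

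Unadjusted limma p values under 0.05 were found for 362 genes with Hispidulin in banded hearts, 287 in sham hearts, 289 in the interaction and 347 in the average over both operations. No member was among the first 3 of these sets, and Nfatc4 was in the last (exact two-sided permutation p = 0.0368 on 6 against 6 mice, before any allowance for the 54 tests).

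Fibroblast markers moved in some of the same mice as Nfatc4. The 6 markers summed to 345 FPKM in DMSO+AB mouse 1, 793.2 in mouse 2 and 505.2 in mouse 3, beside Nfatc4 levels of 2.03, 3.53 and 2.94 FPKM. In DMSO+Sham the sum was 316.8 to 385.1 FPKM, in Hispidulin+Sham 317.6 to 429.4 and in Hispidulin+AB 350.7 to 531 FPKM. In none of these groups did the mice stand in the same order for the sum and for Nfatc4. In DMSO+AB against DMSO+Sham 2 of the 6 passed as higher, where 2.5% of all genes were called higher and 5.21% in either direction. Postn, a matrix protein of activated fibroblasts, had a log2 fold change of 3.08 (limma adjusted p 0.0197). Col1a1, a chain of type I collagen, had 1.86 (limma adjusted p 0.0407). The calls of Postn and Col1a1 held in 11 and 9 of 16 alternative settings. Pdgfra, Dcn, Tcf21 and Lum, the other 4, had adjusted p values between 0.128 and 0.69. The part of this list in the Nfatc4 values was not tested.

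As shares of the summed FPKM of the 4 genes, Nfatc1 held 41.24 ± 2.121% in DMSO+Sham, Nfatc3 31.09 ± 2.145%, Nfatc2 17.15 ± 3.845% and Nfatc4 10.52 ± 0.7753% (SD, n = 3). In DMSO+AB the shares were 38.5 ± 2.904%, 27.14 ± 3.658%, 20.85 ± 2.432% and 13.51 ± 2.926%. The family sum stayed between 19.39 and 21.65 FPKM in the 12 mice. The exact two-sided permutation p values for the 4 shares were 0.2 to 0.4.

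Camk2d encodes the delta form of CaMKII, the main one in the heart. It measured 37.44, 48.57 and 33.33 FPKM in DMSO+Sham and 42.85, 39.62 and 55.37 in Hispidulin+Sham. After banding it measured 57.12, 39.44 and 36.29 FPKM with DMSO and 44.71, 43.15 and 52.43 with Hispidulin. The 4 ranges overlapped. Its log2 difference was 0.14 in DMSO+AB against DMSO+Sham (95% confidence interval -0.27 to 0.55) and 0.10 in Hispidulin+AB against DMSO+AB (-0.31 to 0.51).

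Its share of the CaMKII family was more even within groups than its level. Camk2d held 53.72%, 55.82% and 54.63% of the summed FPKM of the 4 genes in the DMSO+Sham mice. It held 56.91%, 52.3% and 63.13% in the Hispidulin+Sham mice, which overlapped both banded groups. It held 64.83%, 61.58% and 55.71% in the DMSO+AB mice and 60.18%, 60.83% and 64.37% in the Hispidulin+AB mice. The difference of 5.98 percentage points between DMSO+AB and DMSO+Sham had an exact two-sided permutation p of 0.2 (0.786 adjusted over the 22 shares tested). Camk2a, a form known best from neurons, held 18.93%, 19.48% and 18.36% in DMSO+Sham and 14.47%, 11.21% and 13.52% in DMSO+AB, with every banded mouse below every sham mouse. Shares of 1 family are tied to each other, since they sum to the whole. That difference of -5.85 points had the exact permutation p of 0.1 that is the smallest possible here (0.786 adjusted). With Hispidulin the Camk2a shares overlapped, at 18.23%, 21.41% and 15.77% after sham surgery and 16.7%, 14.21% and 14.52% after banding. The level of Camk2a had a log2 fold change of -0.50 in DMSO+AB against DMSO+Sham (SE 0.188, limma adjusted p 0.157), where the mice overlapped. In Hispidulin+AB against Hispidulin+Sham it was -0.33 (SE 0.188, limma adjusted p 0.779), where they did not.

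**Figure D3:**
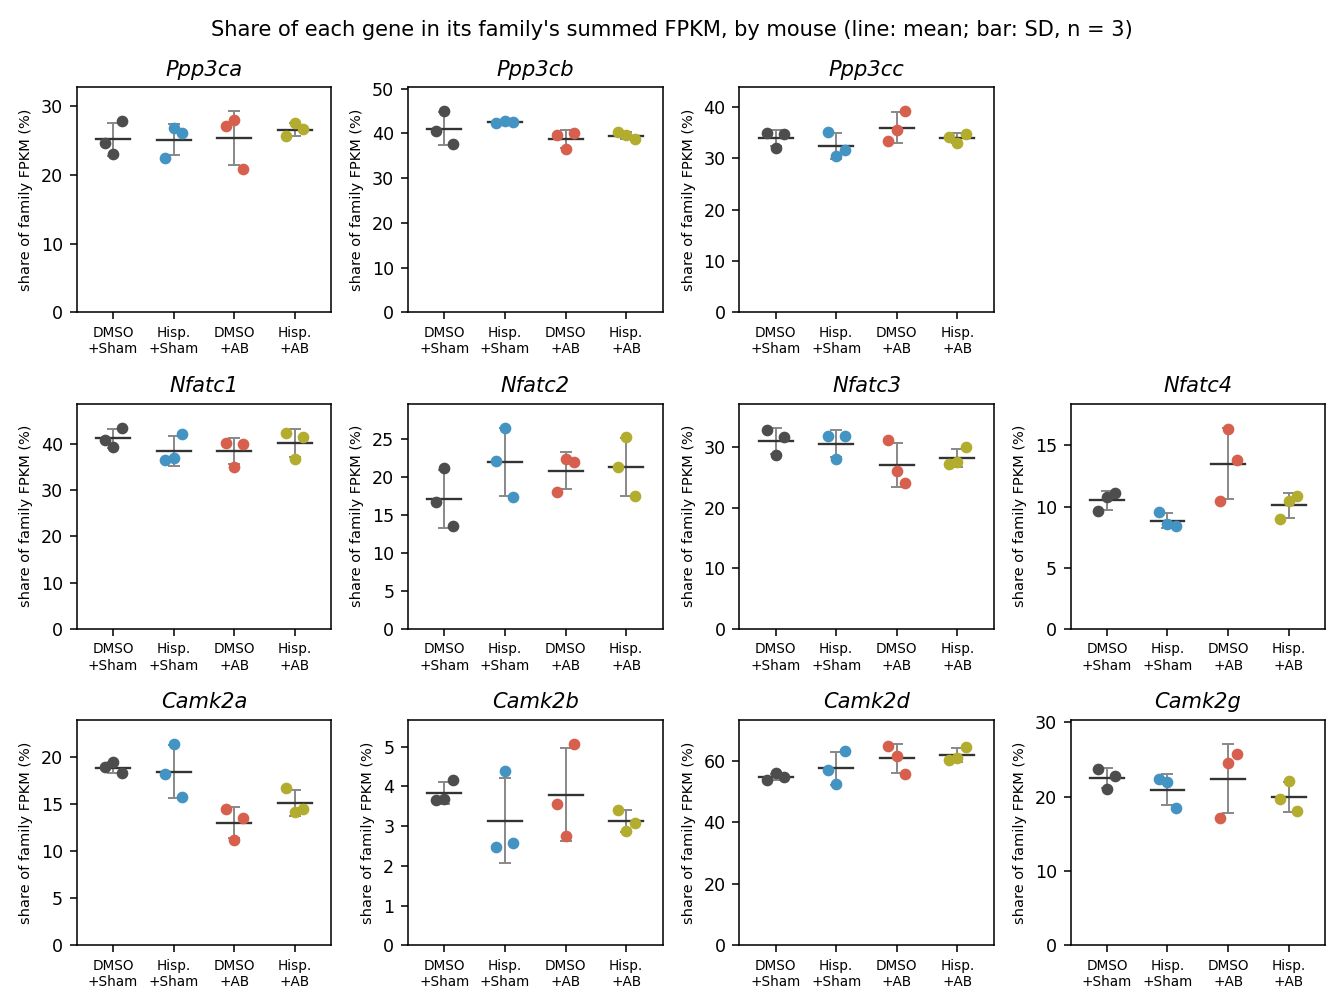
Share of each gene in the summed FPKM of its family in percent (vertical axes, from 0), for the calcineurin catalytic genes (top), the NFAT genes (middle) and the CaMKII genes (bottom), with 1 point per mouse, a line at the mean and a bar for the SD (n = 3). The 3 DMSO+AB mice lie between 11.21% and 14.47% for Camk2a, below the 3 DMSO+Sham mice at 18.36% to 19.48%.

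When the 4 groups were put in order of mean level, neighbouring groups overlapped for all 9 members. For Rcan1 the order was DMSO+AB, Hispidulin+AB, DMSO+Sham and Hispidulin+Sham, and Hispidulin+AB overlapped with DMSO+Sham by the pair of mice named above.

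Of 5 genes used as markers of cardiac hypertrophy, 4 rose in DMSO+AB against DMSO+Sham, where 2.5% of all genes were called higher. Nppa and Nppb, the natriuretic peptides, rose by log2 fold changes of 4.54 and 3.08 (limma adjusted p 0.0121 and 0.0036). Acta1, skeletal actin, rose by 4.12 (limma adjusted p 0.0032), and Ankrd1, a stretch-responsive muscle protein, by 1.96 (limma adjusted p 0.00895). The calls of Nppb and Acta1 held in 16 of 16 alternative settings, that of Ankrd1 in 15 and that of Nppa in 11, the last being lost without DMSO+Sham mouse 1, DMSO+AB mouse 2 or DMSO+AB mouse 3 (log2 fold changes of 4.00 to 5.57 over the alternatives, adjusted p up to 0.109 from limma). Myh7, the slow myosin heavy chain, passed in the average over both treatments at 1.93 (limma adjusted p 0.0228), which held in 13 of 21 alternative settings and was lost without any 1 of Hispidulin+Sham mice 1 and 3, DMSO+AB mice 2 and 3 and Hispidulin+AB mice 2 and 3. Between the 2 banded groups 0 of the 5 passed, as did 0% of all genes, so that this count says nothing about the markers. Their log2 fold changes in Hispidulin+AB against DMSO+AB ran from -1.77 to -0.34. Nppb was the 1 of 5 whose mice did not overlap there, beside 7.88% of all genes. The DMSO+AB mice are the same as in DMSO+AB against DMSO+Sham.

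Of 5 listed genes of calcium handling whose products CaMKII acts on, 3 fell in DMSO+AB against DMSO+Sham, where 5.21% of all genes passed in either direction. In Hispidulin+AB against Hispidulin+Sham 0 of 5 passed, as did 0% of all genes, so that this count says nothing about the list. Atp2a2 had a log2 fold change of -0.38 there (limma adjusted p 0.608), with groups that did not overlap. Atp2a2, the calcium pump of the sarcoplasmic reticulum, measured 4481.54, 3903.27 and 3209.48 FPKM in DMSO+Sham and 2921.32, 2023.74 and 2320.63 in DMSO+AB, without overlap, a log2 fold change of -0.68 (limma adjusted p 0.0227). Pln, the inhibitor of that pump, fell by 0.62 on the log2 scale (limma adjusted p 0.0396), and Ryr2, the calcium release channel, by 0.59 (0.0364). In DMSO mice these calls held in 10, 6 and 9 of 16 alternative settings for Atp2a2, Pln and Ryr2, and all 3 were lost without DMSO+Sham mouse 1, DMSO+AB mouse 2 or DMSO+AB mouse 3. The median of the list was -0.59, beside -0.04 over all genes. In the average over both treatments the same 3 passed, where 7.39% of all genes did. Atp2a2 did so under 21 of 21 alternative settings, Pln under 11 and Ryr2 under 6. Hispidulin in banded hearts gave a median of 0.28 for the list, beside 0.0047 over all genes. There 0 of 5 passed, as did 0% of all genes.

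The other calcineurin genes listed, which bind, anchor or inhibit the phosphatase or activate it, gave 0 of 13 tested past the threshold in DMSO+AB against DMSO+Sham, a count near the 5.21% of all genes, with a median log2 fold change of 0.16 beside -0.04 over all genes. The smallest p belonged to Fkbp1a, whose product binds the calcineurin-blocking drug tacrolimus and the ryanodine receptor. It measured 100.67, 133.93 and 113.08 FPKM in DMSO+Sham and 130.39, 159.14 and 159.28 in DMSO+AB, which overlapped, at a log2 fold change of 0.37 (limma adjusted p 0.0845). Over both treatments it was 0.29 with a limma adjusted p of 0.0475, which held in 7 of 21 alternative settings. With Hispidulin in banded hearts 0 of 13 passed, beside 0% of all genes, with a median of -0.05.

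Among kinases and partners of NFAT, 2 of 19 rose in DMSO+AB against DMSO+Sham and 0 fell, where 2.5% of all genes were called higher and 5.21% in either direction. Jun, an AP-1 protein that binds DNA beside NFAT, measured 25.71, 25.68 and 20.44 FPKM in DMSO+Sham and 44.6, 32.09 and 35.94 in DMSO+AB, a log2 fold change of 0.62 (limma adjusted p 0.0376). Homer2, a scaffold protein known to compete with calcineurin for NFAT, measured 9.78, 11.21 and 7 FPKM against 14.51, 13.06 and 14.05, a log2 fold change of 0.55 (limma adjusted p 0.0467). Both calls were close to the threshold, held in 6 and 4 of 16 alternative settings, and were lost without any 1 of the 6 mice except DMSO+Sham mouse 2. The list median was -0.0044.

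Mapk14, the p38 alpha kinase that phosphorylates NFAT, fell over both treatments. It measured 24.98 to 30.69 FPKM in the 6 sham mice, with a DMSO+Sham mean of 27.4 and a Hispidulin+Sham mean of 28.6. It measured 21.25 to 23 FPKM in the 6 AB mice, so that all AB mice were below all sham mice. The averaged log2 fold change was -0.33 (SE 0.0635, limma adjusted p 0.0121), and it passed in 21 of 21 alternative settings. Fos, the other AP-1 gene listed, was listed at 10.98, 1.72 and 0.77 FPKM in DMSO+AB and 7.67, 1.3 and 11.85 in Hispidulin+AB, against 0.37 to 2.24 FPKM in the 6 sham mice, with a wide spread and an averaged limma adjusted p of 0.126.

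Other calmodulin-dependent kinases and the histone deacetylases that they act on gave 0 of 15 past the threshold in DMSO+AB against DMSO+Sham, a count near the 5.21% of all genes, with a median log2 fold change of -0.03. Hdac4, a class IIa histone deacetylase held to restrain growth genes, measured 4.04, 4.76 and 3.66 FPKM in DMSO+Sham and 2.9, 2.51 and 2.8 in DMSO+AB, without overlap, at -0.46 (limma adjusted p 0.0685). Averaged over both treatments it fell by 0.40 on the log2 scale (limma adjusted p 0.0248), which held in 14 of 20 alternative settings. Among channels and Gq-coupled signalling genes of calcium entry, 0 of 12 passed, also near that share, and the smallest p belonged to Cacna1c, the L-type channel, at -0.43 (limma adjusted p 0.0798). With Hispidulin in banded hearts 0 of 15 and 0 of 12 passed in these lists, and 0 of 19 NFAT kinases and partners, beside 0% of all genes.

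**Figure D4:**
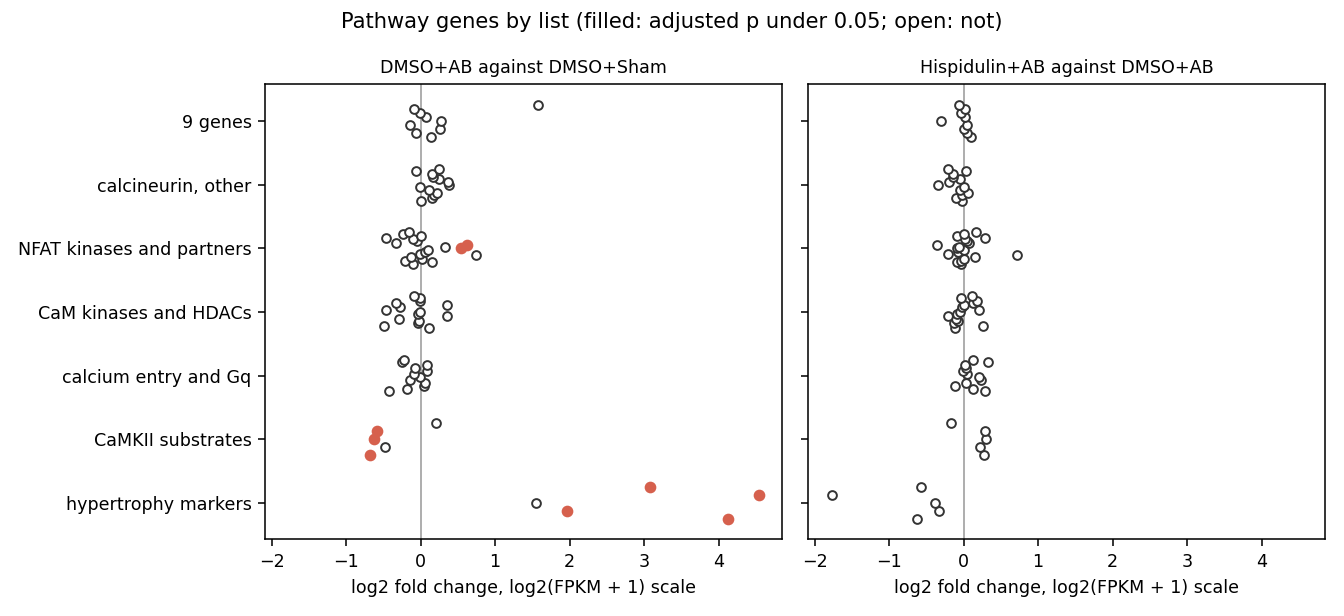
Log2 fold change on the log2(FPKM + 1) scale (horizontal axis) of each tested gene in the 9 members and 6 pathway lists (vertical axis; marker lists of other cell types are not drawn), for DMSO+AB against DMSO+Sham (left) and Hispidulin+AB against DMSO+AB (right); filled points have a limma adjusted p under 0.05. Filled points stand on the left only: 4 hypertrophy markers and 2 NFAT partners above 0, and 3 CaMKII substrates below 0.

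The genes whose pattern over the 12 mice was closest to Rcan1 were Hspb1, a small heat shock protein (Pearson r = 0.983, Spearman coefficient 0.986), Abra, an actin-binding protein of striated muscle (r = 0.965, Spearman coefficient 0.937), and Lasp1, an actin-binding adaptor (r = 0.964, Spearman coefficient 0.951). These were the 3 highest r among 11664 genes, in libraries that share their processing, and are given as a description. For Abra and Lasp1, all sham mice lay below all banded mice, so that their r over 12 mice includes that separation. Without the 2 mice farthest from the median of Rcan1 the r values were 0.98, 0.935 and 0.919. After each group's mean was subtracted they were 0.967, 0.925 and 0.9, so that they also went with Rcan1 among mice of the same group.

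Hspb1 measured 737.21, 425.81 and 1095.53 FPKM in DMSO+Sham, where Rcan1 was 81.34, 53.72 and 166.44 FPKM. It measured 750.2, 443 and 965.52 FPKM in Hispidulin+Sham, 1759.77, 1254.86 and 1468.34 in DMSO+AB and 1489.49, 906.6 and 1746.56 in Hispidulin+AB. In each of the 4 groups the mice stood in the same order for both genes.

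After subtraction of the group means the Pearson r of Rcan1 was -0.03 with Nppb and 0.081 with Ankrd1. It was -0.505 with Acta1, -0.263 with Myh7 and -0.245 with Nppa. With Nfatc2 it was -0.296 over the 12 mice (Spearman coefficient -0.28, and r = 0.056 without the 2 mice farthest from the median of Rcan1) and -0.945 after subtraction (Spearman coefficient -0.965, and r = -0.939 without the 2 mice of largest deviation). In every group the mouse with the most Rcan1 had the least Nfatc2. This pair was singled out after its values were seen among the 8 pairs of Rcan1 with another member, whose other 7 values after subtraction lay between -0.314 and 0.66.

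**Figure D5:**
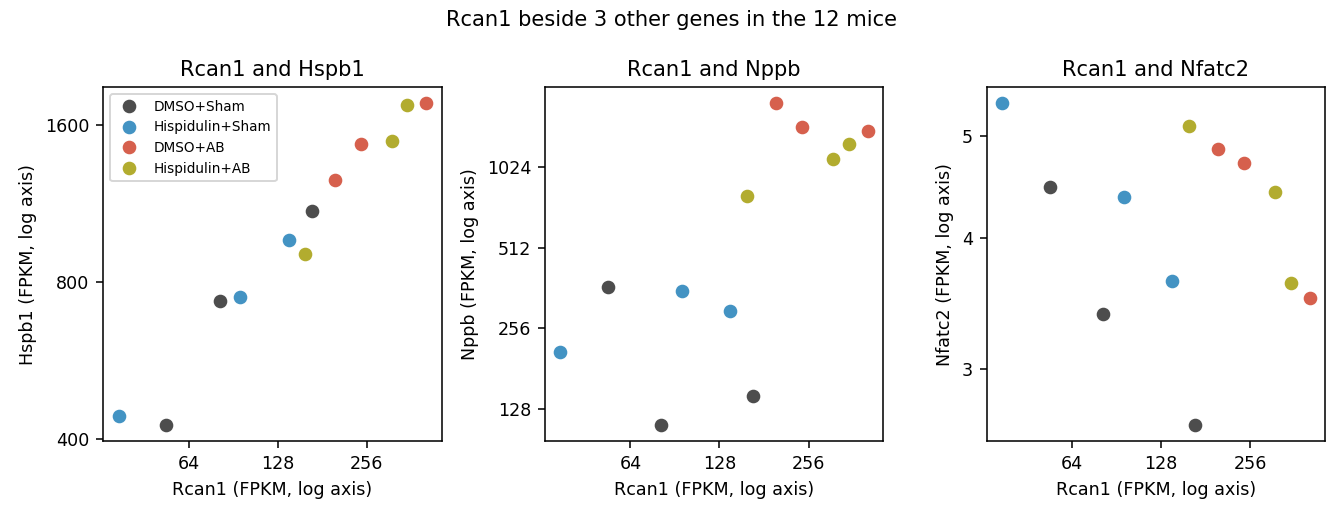
Rcan1 (horizontal axes) against Hspb1, Nppb and Nfatc2 (vertical axes), all in FPKM on logarithmic axes, with 1 point per mouse coloured by group (n = 3 each). Hspb1 rises with Rcan1 through all 4 groups, Nppb separates AB from Sham mice with no common slope inside them, and Nfatc2 falls with rising Rcan1 inside the AB mice and inside the Sham mice.

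For the other members the closest genes were as follows. For Ppp3ca they were Sh3bgrl, Eps15 and Ireb2 (r = 0.95 to 0.967), for Ppp3r1 Ubr1, Tmem87b and Rabgap1l (0.928 to 0.944), and for Ppp3cb Slc44a1, Hacd2 and Gatm (0.885 to 0.903). For Camk2d they were Kpna1, Tra2b and Creb5 (0.882 to 0.904). Among the NFAT genes they were Utp25, Smad4 and Txnrd2 for Nfatc1 (0.778 to 0.842), Ost4, Ndufa4l2 and Eef1akmt1 for Nfatc2 (0.892 to 0.902), Ttc21b, Pou2f1 and Lgr4 for Nfatc3 (0.872 to 0.903), and Cx3cl1, B4galnt1 and S1pr2 for Nfatc4 (0.927 to 0.943). Within the 9 members, Ppp3ca and Ppp3r1, which encode partners in the same enzyme, had r = 0.74, and 0.905 after the group means were subtracted. These were the highest r of any pair of members. Ppp3cb, whose product is also a partner of that of Ppp3r1, had r = 0.387 with it, and 0.289 after subtraction.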

How the data were processed

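Poly(A) RNA was sequenced as single-end reads of 50 bases on a BGISEQ-500. The authors deposited 1 table of FPKM values per gene and library, rounded to 0.01, without read counts, so depth and counting intervals are unknown. The submitters' processing notes name HISAT2 2.0.4, Bowtie2 2.2.5, RSEM 1.2.12 and DESeq2 1.4.5 (the last used by the authors only). The genome build and annotation are not given in the sources used here. Gene IDs were matched to symbols through a RefSeq gene table (GRCm38.p6), which named 17947 of 18079 (99.3%). Promoter windows came from the same RefSeq assembly, and exon overlaps from GENCODE.

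Values were tested as log2(FPKM + 1), so folds of low genes are understated, in 11664 genes with FPKM of at least 1 in at least 3 libraries. limma 3.58.1 (R 4.3.3) fitted 1 mean per group over all 12 libraries (8 residual degrees of freedom, mean-variance trend, two-sided, Benjamini-Hochberg, threshold 0.05). It was tested on simulated data. Single values and shares used exact permutation tests (scipy 1.17.1). A stricter rule on adjusted p and fold change was tried as an alternative. The members, gene lists and tests were chosen with earlier results of these data known. Named genes were the members, the other genes of their families, list genes past the threshold or else of smallest p, and the 3 genes of highest r for each member. Alternatives changed the pseudocount, filter, scaling, trend, weights, covariates, libraries and call rule.

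Mice share replicate numbers in the labels. Same-numbered mice deviated together from their group means in Hispidulin+Sham with DMSO+Sham (r across genes 0.126 to 0.33) and in Hispidulin+AB with Hispidulin+Sham (0.147 to 0.228), from which alone the pairing was taken there. They did not in DMSO+AB with DMSO+Sham (-0.198 to -0.0239) or in Hispidulin+AB with DMSO+AB (-0.183 to 0.3).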

Additional observations from a re-analysis of the deposited data

How the results depend on the processing

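The files give no read depth, so precision rests on 3 mice a group. The count of members past the threshold in DMSO+AB against DMSO+Sham was 0, became 1 (Rcan1, limma adjusted p 0.0161) with the replicate block, whose numbers did not pair these mice, and ranged from 0 to 1 without 1 mouse each. In Hispidulin+AB against Hispidulin+Sham it became 1 with library weights (Rcan1, log2 fold change 1.99, adjusted p 0.0339). In the average of AB against Sham it was 1, and became 0 under the stricter rule of an adjusted p up to 0.001 and a log2 fold change of 1 or more either way, became 0 with a covariate for the series of animal numbers, and ranged from 0 to 2 without 1 mouse each (2, with Nfatc4, without DMSO+AB mouse 1). The replicate block changed no other call of a member. All genes past the threshold numbered between 0 and 1423 over the alternatives in DMSO+AB against DMSO+Sham, and between 9 and 2535 in the average.

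Of 650 log2 fold changes of members under alternatives, 593 kept direction and side of the threshold and 49 changed sign, none of them past the threshold in the report. Some settings, such as the filter, the trend and the replicate block, cannot alter the log2 fold change of a member. Of 112 family shares, 11 changed sign, and 16 of the 112 used library scaling, which cannot alter a share. The 511 values of other list genes came only from genes past the threshold with all libraries. Of these, 0 changed sign, 356 stayed past the threshold and 155 did not. For the sign changes the cause was not tested. In DMSO+AB against DMSO+Sham, Ppp3cb became 0.0184 with median-of-ratios scaling and 0.0606 with library weights, Ppp3r1 0.00975 with weights and Ppp3ca -0.0264 with the series covariate. For Hispidulin in banded hearts, quantile normalization gave 7.3e-05 for Ppp3cb and -0.0104 for Nfatc2, and weights gave 0.0778 for Rcan1, -0.107 for Ppp3ca, -0.0359 for Ppp3r1 and -0.00848 for Nfatc2. In Hispidulin+Sham against DMSO+Sham, Nfatc3 became 0.00384 with quantile normalization and 0.0227 with the series. For banding under Hispidulin, the series gave -0.0356 for Ppp3ca and 0.0364 for Nfatc2.

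Leaving out 1 mouse each gave, in DMSO+AB against DMSO+Sham, ranges of -0.0514 to 0.244 for Ppp3ca, -0.0601 to 0.0936 for Ppp3cb, -0.155 to 0.0119 for Ppp3r1 and -0.0532 to 0.29 for Camk2d. For Hispidulin in banded hearts the ranges were -0.285 to 0.285 for Rcan1, -0.154 to 0.142 for Ppp3ca, -0.0825 to 0.0848 for Ppp3r1, -0.113 to 0.113 for Nfatc2, -0.00835 to 0.0902 for Nfatc3 and -0.0266 to 0.294 for Camk2d. In Hispidulin+Sham against DMSO+Sham they were -0.585 to 0.356 for Rcan1, -0.0674 to 0.148 for Ppp3ca, -0.0352 to 0.0977 for Ppp3r1 and -0.0621 to 0.0345 for Nfatc3. For banding under Hispidulin they were -0.0578 to 0.158 for Ppp3ca, -0.129 to 0.0996 for Nfatc2 and -0.0629 to 0.174 for Camk2d, and in the average of Hispidulin against DMSO -0.33 to 0.15 for Rcan1. The share differences ranged, in percentage points, from -1.20 to 2.42 for Ppp3ca in DMSO+AB against DMSO+Sham, and in Hispidulin+AB against DMSO+AB from -0.971 to 2.64 for Ppp3ca, -0.397 to 1.43 for Ppp3cb, -1.44 to 2.43 for Nfatc2, -0.365 to 3.18 for Nfatc3 and -1.41 to 3.15 for Camk2d.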
